A study of Zea mays with 32 samples.

Results

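CesA10 (Zm00001d032776), CesA11 (Zm00001d043477) and CesA12 (Zm00001d020531) are the secondary-wall cellulose synthases of maize, and their messages were followed here along the root. They were chosen by identifier from the deposited count table, with the gene names that go with those identifiers. All 3 were present among the 39510 identifiers, and all 3 passed the filter on low counts that left 19587 genes for testing. The filter keeps a gene that reaches enough counts in any 1 slice, so passing it says nothing about the other slices. The deposited table itself holds identifiers only.

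Cellulose is made at the plasma membrane by rosette complexes whose catalytic subunits are CesA proteins. Growing cells use one group of subunits to build the primary wall. Cells that thicken after they stop growing, such as the water-conducting cells of the xylem and fibres, use a separate group to lay down the secondary wall inside the primary one. In Arabidopsis and rice the different subunits of the secondary-wall group are needed together, and loss of any one gives collapsed xylem or brittle stems. New root cells are formed close to the tip, and xylem cells thicken their walls at some distance behind it.

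The plants were B73, a maize inbred line, wild type, at 7 days after germination, and were grown on germination paper. A pair of roots, A and B, were pinned side by side and hand-sectioned together into 16 slices, numbered from the tip (slice 1) backwards (slice 16). This gave 32 RNA-seq libraries, 1 from each root for each slice (n = 2 per slice). No slice thickness and no assignment of slices to a root zone were given in the labels. The libraries held 1008082 to 5681180 counts (median 1860465). Slice 8 of root A stood apart with 8303 genes with a count, against at least 13804 in the other libraries. Both slice 7 libraries were unusually alike, with a mean chi-square per gene of 1.54, where counting noise alone gives 1 and the other slices gave 7.28 to 95.3, and were kept as 2. Levels are given as CPM, counts scaled by TMM to a common library size of 1000000, and values of the 2 roots are given with root B first. A slice is bulk tissue, so a lower level in it may mean fewer cells that express the gene or less message per cell, and these cannot be told apart.

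All 3 genes were at or near 0 in slices 1 to 8 and were highest in its last slices. CesA11 was the first to hold more than 3 counts in both roots, in slice 10, and CesA10 followed in slice 12. CesA12 had few counts before slice 13, apart from 13 in slice 9 of root A, and its largest increase in CPM lay between slices 14 and 15. In slices 13 to 16 CesA10 averaged 47.7 ± 28.1 CPM, CesA11 103.5 ± 39.0 CPM and CesA12 24.5 ± 16.9 CPM (SD, n = 8 libraries each). These means are not corrected for transcript length, so they do not rank the genes against each other. Each of the 3 genes varied between slices (edgeR's quasi-likelihood F test, adjusted p = 3.32e-09 for CesA10, 8.36e-13 for CesA11 and 5.27e-08 for CesA12). Of all genes tested, 60.9% did so, so variation along the root is by itself common here.

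**Figure D1:**
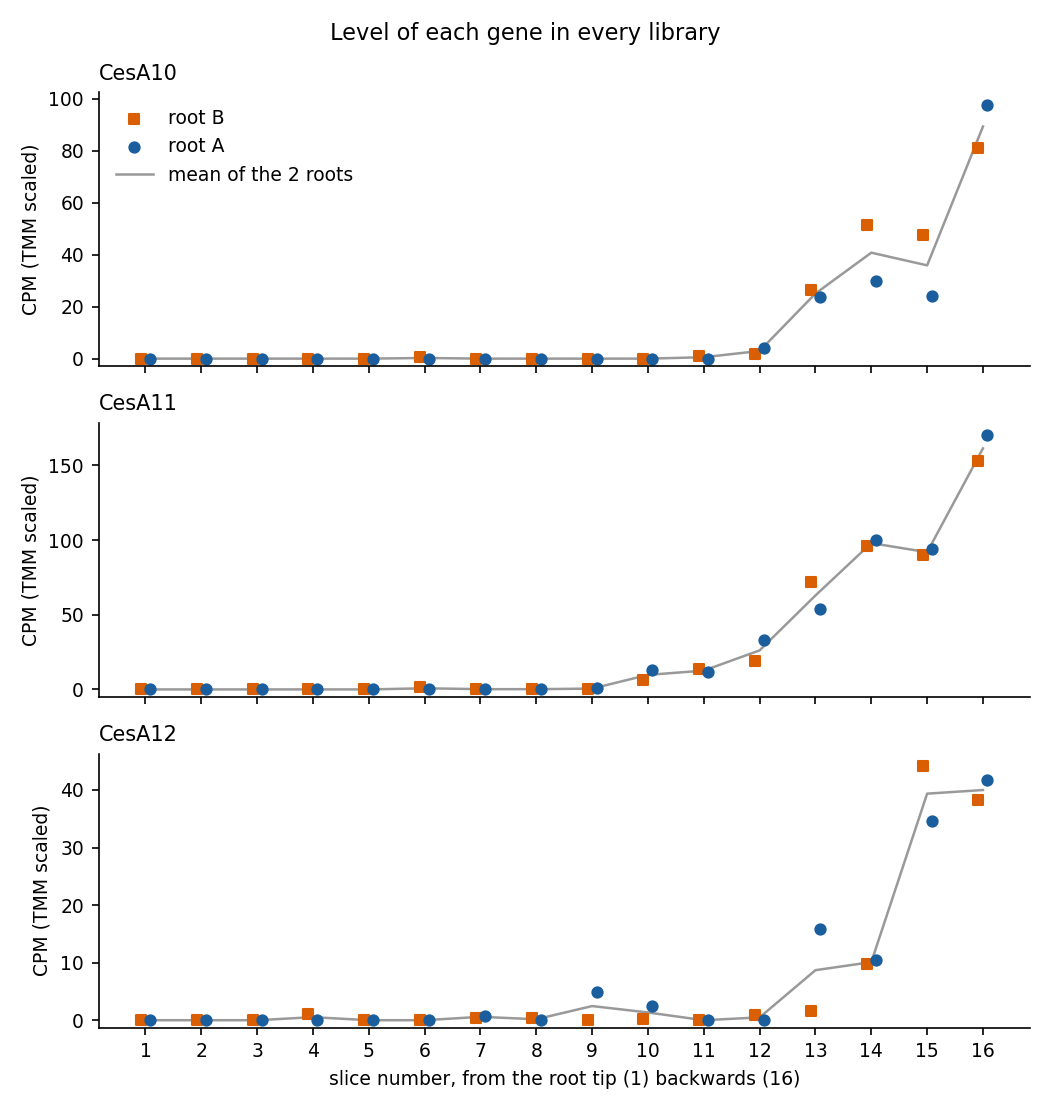
Level of CesA10, CesA11 and CesA12 (CPM, TMM scaled, linear axes) against slice number from the tip (1) to the back (16); squares are root B, circles root A and the line is their mean. All 3 genes lie at or near 0 up to slice 9, apart from 4.91 CPM of CesA12 in slice 9 of root A, and are highest in slices 15 or 16.

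CesA11, a catalytic subunit of the complex, had the earliest increase. Slices 1 to 4 held none of its counts among 9617514 in 8 libraries, which allows a pooled level of up to 0.273 CPM. Over slices 1 to 9 it had 8 counts in 18 libraries. In slice 10 it had 6.43 CPM in root B and 13.0 CPM in root A, from 26 and 16 counts. That made slice 10 the first in which both roots held more than 3 counts of any of the 3 genes.

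CesA11 was at 13.5 CPM in root B and 11.7 CPM in root A in slice 11, and at 19.4 and 32.9 CPM in slice 12. It reached 71.7 CPM in root B and 54.1 CPM in root A in slice 13, and 96.1 and 99.8 CPM in slice 14. It had 89.7 CPM in root B and 94.0 CPM in root A in slice 15, and its highest values, 152.7 and 170.0 CPM, in slice 16. Taken by the slice means, the order from high to low was 16, 14, 15, 13, 12, 11, 10 and 9. The values of the 2 roots did not overlap between neighbours in that order except between slices 11 and 10. The small inversion between slices 14 and 15 was seen in both roots.

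CesA10, another catalytic subunit, lagged behind CesA11. It had a single count in the 20 libraries of slices 1 to 10, in slice 6 of root B. In slices 9 and 10 it had none in 4 libraries holding 11149881 counts, which allows up to 0.278 CPM, while CesA11 had 45 counts in the same libraries. In slice 11 it had 1.09 CPM in root B from 5 counts and none in root A, and in slice 12 it had 1.97 CPM in root B and 3.92 CPM in root A from 6 and 18 counts.

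From slice 13 on, CesA10 was well above those levels. It had 26.3 CPM in root B and 23.8 CPM in root A in slice 13, then 51.5 and 29.9 CPM in slice 14. It had 47.6 CPM in root B and 24.1 CPM in root A in slice 15, and its highest values, 80.8 and 97.6 CPM, in slice 16. By the slice means slice 16 (89.2 ± 11.9 CPM, SD, n = 2) stood above slices 14, 15 and 13, which overlapped each other in that order, and slice 13 (25.03 ± 1.80 CPM) stood above slice 12 (2.95 ± 1.38 CPM). Root B stood above root A in slices 14 and 15, by 1.72 and 1.97 times, and below it in slice 16 (0.828 times).

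CesA12, the third subunit, was low up to slice 12. Over slices 1 to 12 it had 26 counts in 24 libraries (53199052 counts in all), and 13 of these came from 1 library, slice 9 of root A, at 4.91 CPM, while slice 9 of root B had none. It had no count in either root in slice 11, and in slice 12 it had 3 counts in root B and none in root A. In slice 13 the roots differed, with 1.55 CPM in root B from 3 counts and 15.8 CPM in root A from 24 counts.

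The largest increase of CesA12 in CPM lay between slices 14 and 15 in both roots, whereas as a fold the fitted step was larger from slice 12 to 13 (log2 4.17 ± 1.39, SE) than from slice 14 to 15 (1.95 ± 0.81), neither of them called. It had 9.75 CPM in root B and 10.4 CPM in root A in slice 14. In slice 15 it had 44.1 CPM in root B and 34.6 CPM in root A, and in slice 16 it had 38.3 and 41.7 CPM. Slices 16 and 15 overlapped, slice 15 stood above slice 14, and slices 14, 13 and the lower ones overlapped each neighbour in the order of levels.

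**Figure D2:**
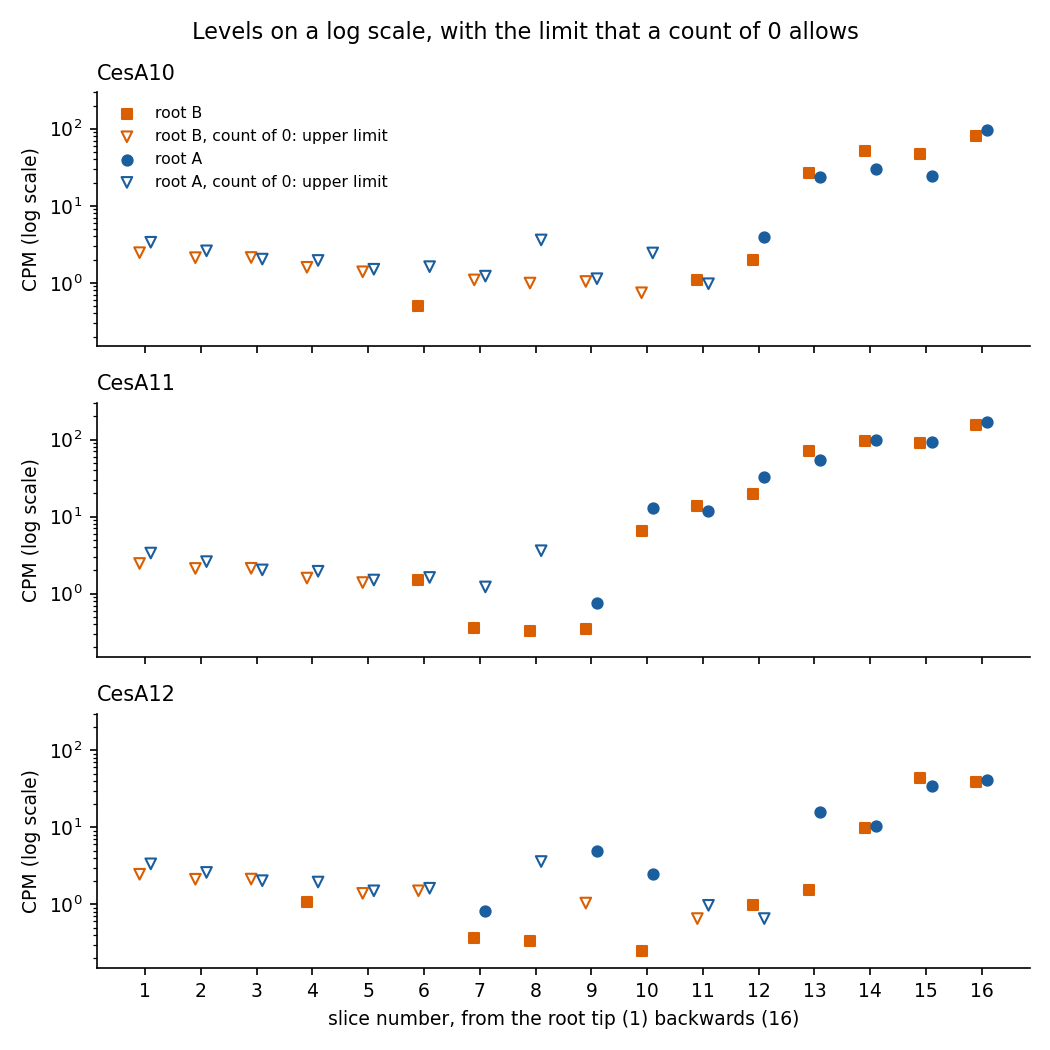
The same levels on a logarithmic CPM axis, with filled squares for root B and filled circles for root A; open triangles mark libraries with a count of 0 and stand at the level that 3 counts would give. In the first 8 slices that limit lies between 0.992 and 3.6 CPM, and the few values measured there are of 1 to 3 counts.

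The slices at the back of the sampled root were compared with those at the tip. CesA10 had 795 counts in slices 13 to 16 and none in slices 1 to 4, and was at least 173-fold higher, with 3 counts over the 8 libraries of slices 1 to 4 as the floor. CesA11 had 1783 counts in slices 13 to 16 and none in slices 1 to 4, and was at least 388-fold higher. CesA12 had 443 counts in slices 13 to 16 and 2 in slices 1 to 4, both in slice 4 of root B, a 144-fold ratio with a counting interval of 39.8 to 1200. All 3 genes were called higher in slices 13 to 16 (edgeR, adjusted p = 3.39e-09 for CesA10, 1.81e-13 for CesA11 and 5.72e-07 for CesA12), as were 27.9% of all genes tested. In all 3 every library of slices 13 to 16 lay above every library of slices 1 to 4, which was the case for 11.1% of all genes. No count at all in slices 1 to 4 with a mean of at least 10 CPM in slices 13 to 16, as in CesA10 and CesA11, was found for 1.01% of all genes. In each root alone, with the 4 slices of a block as replicates, the 3 genes were also called, with adjusted p from 7.47e-07 to 0.000175 in root B and from 7.66e-05 to 0.00107 in root A (edgeR). In these fits 19.8% of all genes were called higher in root B and 14.8% in root A. Slices of 1 root are not independent replicates, so these p-values are too small to the extent that neighbours resemble each other. They describe that root only.

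Successive blocks of 4 slices showed where these differences lay. In slices 5 to 8 against slices 1 to 4, for which 6.42% of all genes were called higher, the contrast of slice means could not be fitted for any of the 3, because single slices of both blocks held no count. They had 1, 5 and 4 counts in slices 5 to 8, in the order CesA10, CesA11 and CesA12. With the blocks as groups, a fit chosen after the data were seen, none was called (edgeR, adjusted p = 0.831, 0.511 and 0.971 in the same order). In slices 9 to 12 against slices 5 to 8, CesA11 was the one called among the 3 (353 against 5 counts, 46.1-fold, counting interval 19.6 to 143, edgeR, adjusted p = 0.000473), and 22.0% of all genes were called higher. For CesA10 (29 against 1 counts) and CesA12 (20 against 4 counts) this contrast could not be fitted for the same reason. With the blocks as groups CesA10 had an adjusted p of 0.0664 and CesA12 of 0.348.

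The last block was higher than the one before it for all 3 genes. In slices 13 to 16 against slices 9 to 12, CesA10 was 42.5-fold higher (counting interval 29.3 to 63.8), CesA11 7.83-fold (6.98 to 8.80) and CesA12 34.3-fold (22.0 to 56.7). The calls had adjusted p = 7.31e-09, 2.30e-09 and 6.80e-07 in the same order (edgeR), and 12.0% of all genes were called higher. Every library of slices 13 to 16 lay above every library of slices 9 to 12 in CesA10 and CesA11, a pattern that 1.88% of all genes showed. In CesA12 the groups overlapped, since slice 13 of root B (1.55 CPM) lay below slices 9 and 10 of root A (4.91 and 2.44 CPM). The folds were larger in root B, a difference that was not tested: in root B they were 73.7, 10.8 and 96.6, and in root A 24.7, 5.72 and 18.8, in the order CesA10, CesA11 and CesA12. Counting intervals cover counting error only, and reads amplified without molecular identifiers are not independent molecules.

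The onset of each gene was read in each root as the first slice at 10% of the gene's highest level there from which all slices farther back stayed at or above that share. By this reading CesA11 began in slice 12 in both roots and CesA10 in slice 13 in both roots. CesA12 began in slice 14 in root B and slice 13 in root A. In root A it had also stood at 11.8% in slice 9, from 13 counts, before CesA11 reached 10% there, but it was at 5.87% in slice 10. In slice 12 CesA11 stood at 12.7% of its highest level in root B and 19.4% in root A, whereas CesA10 stood at 2.44% and 4.02%. At 50% of the highest level the slices were 14 and 14 for CesA11, 14 and 16 for CesA10 and 15 and 15 for CesA12, root B first, so the order of CesA10 and CesA12 in root A depended on the share chosen. CesA10 in root A stood at 24.3% of its highest level in slice 13, 30.7% in slice 14 and 24.7% in slice 15.

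**Figure D3:**
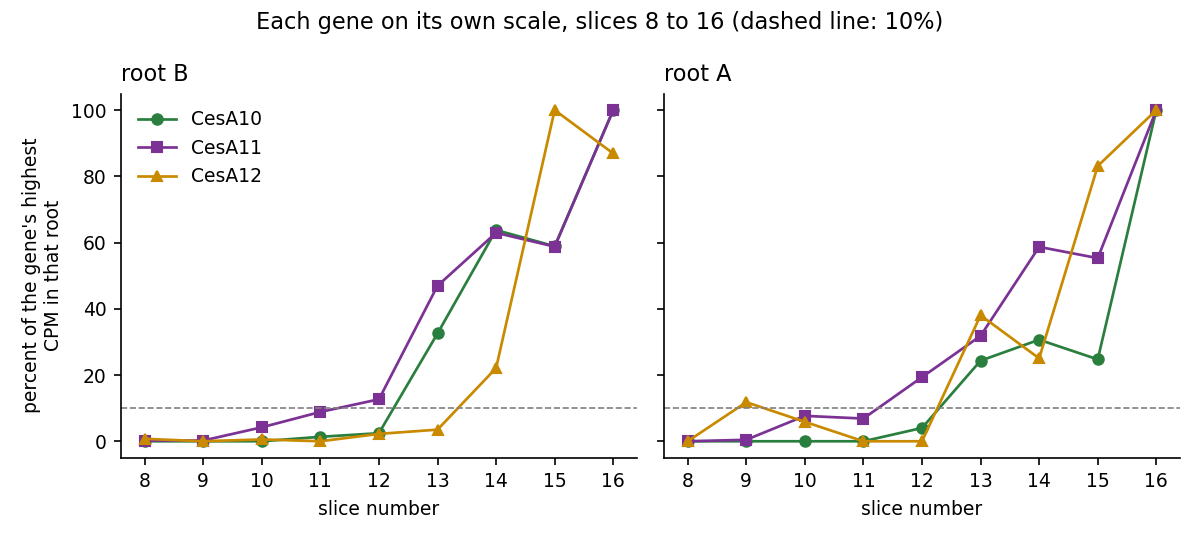
Level of each gene as a percent of its own highest CPM in that root (vertical axis) in slices 8 to 16 of root B and root A; the dashed line is 10%. CesA11 crosses the line for good in slice 12 in both roots, CesA10 in slice 13, and CesA12 in slice 14 of root B and slice 13 of root A.

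Pairs of slices were also tested against the tip. In slices 9 and 10 against slices 1 to 4, CesA11 alone of the 3 was called (edgeR, adjusted p = 0.0207; at least 15.3-fold higher, 45 counts against none), where 21.6% of all genes were called higher. That call was lost without slice 9 of root A (adjusted p = 0.149), although slice 10 held 42 of the 45 counts. In slices 11 and 12 against slices 1 to 4, CesA11 was called with an adjusted p of 3.46e-08 and CesA10 with 0.0456 (29 counts against none), and 25.3% of all genes were called higher. The CesA10 call lay at the threshold: with root as a replicate block its adjusted p was 0.0501. It was lost in 23 of the 32 fits that left out 1 library. Among them is the fit without slice 11 of root B, where slice 11 held no count and the contrast could not be fitted. CesA12 was not called in either pair of slices, with an adjusted p of 0.146 in slices 9 and 10; in slices 11 and 12, where it had 3 counts in all, the contrast could not be fitted.

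None of the 15 steps between neighbouring slices was called for any of the 3 genes, in edgeR or in DESeq2, while 15.7% of all genes were called at 1 or more steps. At an unadjusted p under 0.05 in edgeR there was 1 step for CesA10, 2 for CesA11 and 2 for CesA12. The step from slice 12 to slice 13 was the one all 3 genes shared, with unadjusted p = 0.0012 for CesA10, 0.0369 for CesA11 and 0.0050 for CesA12 (edgeR; adjusted p = 0.172, 0.431 and 0.254). For CesA12 it lay in root A, which went from 0 to 24 counts, while root B had 3 counts in both slices. The others were from slice 9 to 10 for CesA11 (unadjusted p = 0.00139, edgeR) and from slice 14 to 15 for CesA12 (unadjusted p = 0.0227, edgeR). The increases were called over blocks of slices and not at single cuts.

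The ratio of counts within a library needs no scaling between libraries, and was used to follow the 3 subunits against each other. Since transcript lengths were not used, only the change of a ratio along the root is read, and not its size. The count ratio of CesA10 to CesA11 was 0.446 in slices 13 to 16 (795 to 1783 counts, exact interval 0.410 to 0.485) and 0.0822 in slices 9 to 12 (29 to 353 counts, 0.0542 to 0.120). By library it ran from 0.367 to 0.536 in root B and from 0.257 to 0.574 in root A in slices 13 to 16. In slice 12 it was 0.102 in root B and 0.119 in root A, below every library of slices 13 to 16.

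The mean log2 ratio, with 0.5 added to each count, was −1.23 ± 0.43 in slices 13 to 16 and −3.83 ± 1.65 in slices 9 to 12 (SD, n = 8 libraries each), a difference of 2.60. Across roots the libraries of the blocks overlapped on this scale, slice 15 of root A being at −1.96 and slice 9 of root B, with 0 and 1 counts, at −1.58. Within each root they did not overlap, though in root B only narrowly, with slice 13 at −1.44. An exact permutation test of slices within roots, two-sided, gave p = 0.00041, the smallest that its 4900 arrangements allow, and 0.00245 after adjustment over the 6 ratio comparisons made. Slices of a root follow one another and are not independent, so this p is too small to the extent that they resemble their neighbours. The difference was 2.46 in root B and 2.73 in root A, and did not pass in either root alone (exact permutation, adjusted p = 0.171 and 0.0857). With 4 slices on each side, 1 root allows too few arrangements for a single comparison to pass after adjustment over 6. Nothing is therefore read from the tests of 1 root. The size of the difference depends on the counts added, since CesA10 had no count in 5 of the 8 libraries of slices 9 to 12: with 2 counts added it was 1.52 (exact permutation, adjusted p = 0.0253). Pooled over both roots, the ratio was 0.472 in slices 15 and 16 (0.426 to 0.522) and 0.392 in slices 13 and 14 (0.335 to 0.458). Single libraries varied more: from slice 15 to 16 it went from 0.257 to 0.574 in root A, against 0.530 and 0.529 in root B.

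**Figure D4:**
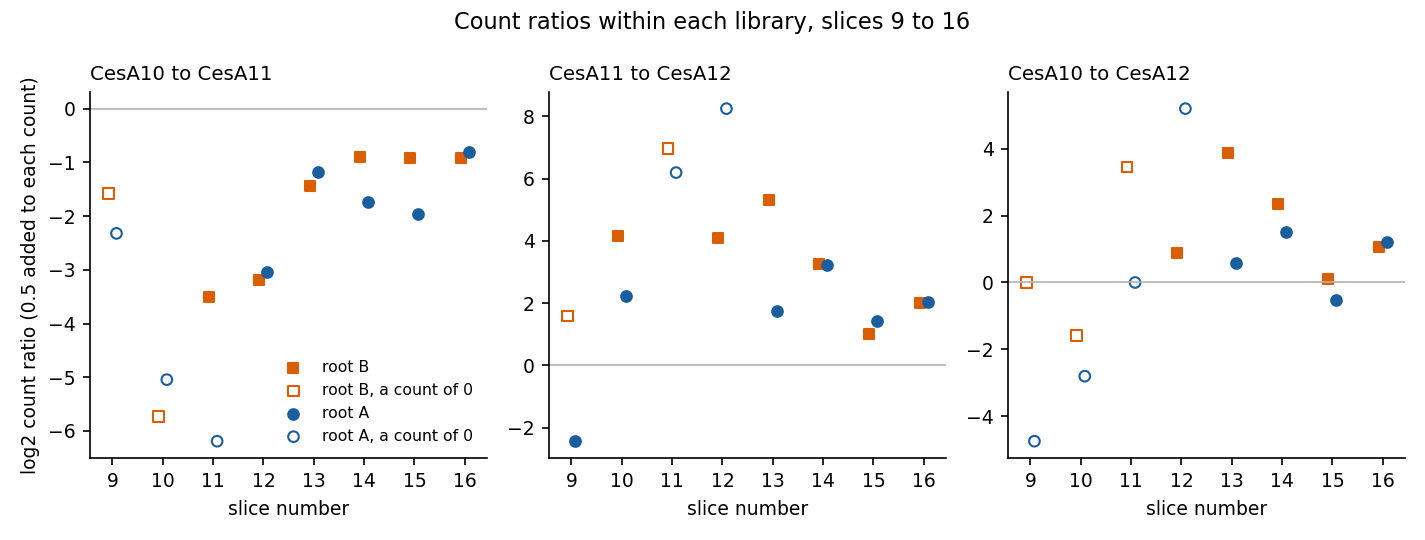
Log2 ratio of counts of each pair of genes within a library (0.5 added to each count) against slice number, slices 9 to 16, with squares for root B and circles for root A; open symbols are libraries in which 1 or both genes had no count. CesA10 to CesA11 lies near −3 in slice 12 and between −2 and −0.8 from slice 13 on, and CesA11 to CesA12 is 1.02 in root B and 1.44 in root A in slice 15, against 3.26 and 3.23 in slice 14.

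The balance of CesA12 to both other genes was not even along the last block. CesA11 had 3.18 counts for each CesA12 count in slices 15 and 16 (2.83 to 3.57) and 9.05 in slices 13 and 14 (6.98 to 11.9). Per slice that ratio was 2.03 in root B and 2.72 in root A in slice 15, against 9.86 and 9.57 in slice 14, so it was lower in slice 15 in both roots. It was 3.98 in root B and 4.08 in root A in slice 16, and 46.3 and 3.42 in slice 13, where root A went against the split of the block. CesA10 had 1.50 counts for each CesA12 count in slices 15 and 16 (1.31 to 1.71), against 3.55 in slices 13 and 14 (2.68 to 4.76). In root A this ratio too was higher in slice 16 (2.34) than in slice 13 (1.5). This split within the block was chosen after the values were seen and has no test. In terms of levels, CesA12 was 4.30-fold higher in slices 15 and 16 than in slices 13 and 14 (3.3 to 5.7), CesA10 1.82-fold (1.56 to 2.13) and CesA11 1.51-fold (1.37 to 1.67). For CesA12 the fold was 8.06 in root B (4.91 to 14.1) and 2.92 in root A (2.10 to 4.12), so the counting intervals of the roots did not overlap.

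For the 2 pairs with CesA12, the planned comparison of slices 13 to 16 with slices 9 to 12 did not pass. The mean log2 ratio of CesA10 to CesA12 was 1.28 ± 1.37 in slices 13 to 16 and 0.05 ± 3.23 in slices 9 to 12 (SD, n = 8; exact permutation, two-sided, adjusted p = 0.416). That of CesA11 to CesA12 was 2.50 ± 1.38 in slices 13 to 16 and 3.88 ± 3.42 in slices 9 to 12 (SD, n = 8; exact permutation, adjusted p = 0.416). The wide spread in slices 9 to 12 comes with CesA12 counts of 0 to 13 per library. The 3 comparisons of slices 9 to 12 with slices 5 to 8 are set largely by the 0.5 counts added, since no library of slices 5 to 8 held more than 3 counts of any of the genes, and nothing is read from them.

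The roots were compared at matched slices to see whether the 3 genes ran ahead in one of them. None of the 3 was called (edgeR, root B against root A: log2 difference 0.34 ± 0.41 SE for CesA10, −0.12 ± 0.30 for CesA11 and −0.48 ± 0.48 for CesA12; adjusted p = 0.703, 0.876 and 0.621), where 10.0% of all genes were called. Each side of this comparison is 1 root. Over slices 13 to 16 the ratio of root B to root A ran from 0.898 to 1.32 for CesA11, from 0.828 to 1.97 for CesA10 and from 0.0977 to 1.27 for CesA12, the lowest being CesA12 in slice 13. Whether the back-to-front change itself differed between roots, called for 0.0306% of all genes, could not be fitted for CesA10 and CesA11, which had no count at the front. In that fit the 4 slices of a block stood in as replicates of 1 root, so its spread is not one between roots. CesA12 had no count at the front of root A, so its change there has no bounded size and the size of the difference is not read. For CesA12 the change in root B less that in root A was −2.89 ± 3.44 (log2, SE, edgeR, adjusted p = 0.973), and it rested on the 2 counts of slice 4 of root B. Without that library CesA12 too had no count at the front, and the difference could not be fitted.

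The 3 profiles were alike in shape, CesA10 and CesA11 most closely. In the 8 libraries of slices 13 to 16 all 3 genes had counts. The Spearman correlation of log2 CPM there was 0.833 between CesA10 and CesA11, 0.333 between CesA11 and CesA12 and 0.405 between CesA10 and CesA12. All these values describe the same libraries, share their depth and scaling, and follow one trend along the root, so they carry no p. In the same order, Pearson's r was 0.907, 0.684 and 0.814 over slices 9 to 16 and 0.862, 0.528 and 0.510 over slices 13 to 16. Over all 32 libraries, which add many zeros, Pearson's r was 0.911, 0.796 and 0.878. Spearman's values over more than slices 13 to 16 are not read, because libraries without a count did not all receive equal ranks.

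Many other genes had profiles at least as close. Ranked by Pearson correlation over the 32 libraries among 11961 other genes, CesA11 was in place 36 for CesA10, and CesA10 in place 125 for CesA11. For CesA12, CesA11 was in place 55 and CesA10 in place 10, and CesA12 itself was in place 61 for CesA10 and 734 for CesA11. The genes most like the mean of the 3 were Zm00001d008300 (correlation 0.977), at 268.0 ± 172.0 CPM in slices 13 to 16 and 0.132 ± 0.374 CPM in slices 1 to 4 (SD, n = 8 each), and Zm00001d025402 (0.975), at 122.4 ± 82.2 and 0.0 ± 0.0 CPM. The files pair neither identifier with a name. Spearman correlation, the first choice, put 2 other genes first, with libraries without a count not all given equal ranks. By it the places of the 3 members for each other ran from 51 (CesA11 for CesA10) to 1584 (CesA12 for CesA11), so their closeness depends on the measure.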

How the data were processed

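RNA-seq counts per gene were analysed for 32 libraries, 16 slices of each of 2 maize roots. The authors deposited whole-number counts; their tools, per the submitters' processing notes, included kallisto 0.43, Trimmomatic and DESeq2, with no role stated. Per the labels' protocols, the library kit was Ovation RNA-Seq System V2, which amplifies the RNA as cDNA, and no molecular identifiers are mentioned. Genome build, annotation, strand and rounding: not given in the sources used here. If kallisto made the counts, reads shared by related CesA genes were divided by estimation; how far this touches the low counts was not tested.

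The CesA names come with the selection of the members. Of the identifiers, 0 matched the reference table of 49888 RefSeq genes, so other cellulose synthases, lignin genes and marker genes of cell types were not analysed here. The members, lists and tests were chosen with earlier results of these data known.

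Counts were scaled and tested over the whole table in edgeR 4.0.16 (R 4.3.3): TMM, filterByExpr by slice (minimum count 10, minimum total 15), quasi-likelihood fit (robust, legacy = FALSE) with slices as groups, and contrasts of means of slice coefficients. Adjusted p-values are Benjamini-Hochberg over 19587 genes, and calls are at 0.05. Standard errors (SE) were taken as the absolute log2 change divided by √F. Where single slices of both sides of a contrast hold no count, their coefficients are unbounded and the contrast could not be fitted. Fold changes are ratios of pooled counts per scaled depth, with 95% exact (Clopper-Pearson) counting intervals; a group with no count was set to 3 counts. Ratios used 0.5 added counts and exact permutation (Python 3.11.15). Genes were named as the 3 members and the 2 genes of highest Pearson correlation with their mean log2 CPM (prior count 2), taking candidates whose mean over all libraries reached 10 CPM. Fits were also run on simulated data, with changes placed in genes averaging at least 10 CPM and otherwise level along the root. That setting differs from genes without counts at the front, and nothing is read from it for these 3 genes.

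Replicates are the 2 roots, so a p-value reflects only how far these roots, sectioned jointly, differ. Libraries of one letter come from one root per the labels, which pairs the samples. As a check, each slice's deviation from its mean was correlated across genes with that of every other slice of the root: the median r was 0.143 (−0.02 to 0.376), and 116 of 120 pairs were positive. Alternatives were another scaling, tool, filter, dispersion step (legacy = TRUE, called older), replicate block, grouping and each library left out. DESeq2 was 1.42.0.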

Additional observations from a re-analysis of the deposited data

How the results depend on the processing

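The calls of variation between slices, of slices 13 to 16 against slices 1 to 4 and against slices 9 to 12 for all 3 genes, and of CesA11 in slices 9 to 12 against 5 to 8 and in slices 11 and 12 against 1 to 4, kept their direction and stayed past the threshold in every alternative run on them and without each of the 32 libraries. DESeq2's size factors shifted all genes by −0.23 (log2) in slices 13 to 16 against 1 to 4, by 0.20 against slices 9 to 12 and by −0.19 in slices 9 to 12 against 5 to 8, little beside the changes reported. The call of CesA10 in slices 11 and 12 (adjusted p = 0.0456) was lost with DESeq2's size factors in edgeR (0.0711), no filter (0.0564), root as a replicate block (0.0501), without slices 1, 8 and 12 of root A (0.0871) and with the slice 7 libraries summed and counted as 1 (0.0522). Without 1 library it ran upwards from 0.03, and without slice 11 of root B the contrast could not be fitted. The block changed no other call. CesA11 in slices 9 and 10 ran from 0.0138 to 0.149 without 1 library. CesA12 in slices 9 and 10 was called with the older dispersion step (adjusted p = 0.0403). Uncalled changes turned sign in DESeq2 for CesA10 in slices 5 to 8 and 5 to 6 (adjusted p = 0.857 and 1) and for CesA12 in slices 5 to 8 and 11 and 12 (0.917 and 0.667). They also did so without 1 library for CesA12 in slices 11 and 12 and for the difference between roots in the change of CesA10 and CesA11. None of these contrasts could be fitted in the main edgeR fit, so no sign is read from them.

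Onset slices in root A were 16 for CesA10 at 25% or 50%, 10 for CesA11 at 5% or at 10 CPM, 13 at 25% and 14 at 50%, and 15 for CesA12 at 50%. In root B they were 14 for CesA10 at 50%, 11 for CesA11 at 5% or at 10 CPM, 13 at 25% and 14 at 50%, and 15 for CesA12 at 25%, 50% or 10 CPM. Scaling did not move them. In 1 root the arrangements are too few for a single ratio comparison to pass. Differences of log2 ratios fell short of the threshold in each root alone: CesA10 to CesA11 in slices 13 to 16 against 9 to 12 (2.46 in root B, 2.73 in root A) and in slices 9 to 12 against 5 to 8 (−2.41 and −4.15), and CesA11 to CesA12 there (3.49 and 4.14). Without 1 library the last ran from 3.19 to 4.72. CesA10 to CesA12 there turned to −0.00772 in root A and ran from −0.197 to 1.23 without 1 library. The cause of these changes was not tested.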
